A study of Mus musculus with 6 samples.

Results

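Atf3, Gap43, Sox11, Gal, Npy and Sprr1a are 6 genes that neurons switch on when their axons are cut or crushed, and they were followed here through the cochlea of mice exposed to loud noise. They were taken by name: every probe that was not a control and carried one of these symbols was used, which gave 8 of 56605 probes and 6 of 37318 genes. All mice were female C57BL/6 aged 6 weeks, with no genetic change given, and the RNA was total RNA of the whole dissected cochlea. The groups were a baseline with no noise and no drug, a noise-only group that had 2 h of intense noise, and 4 groups that had the same noise followed at once by an intraperitoneal injection of saline or of the glucocorticoid dexamethasone (10 mg/kg) and were sampled 12 h or 24 h later. The design text gives 6 mice a group, there was 1 array a group, and the labels do not say whether that array held RNA pooled from all mice. No time after noise is given for the noise-only group.

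Injured neurons pass a retrograde signal from the axon to the cell body, and the cell body answers with transcription factors, peptides and growth proteins that are silent or low in many mature neurons. Atf3 is a stress-induced bZIP transcription factor that is almost absent from intact sensory and motor neurons and appears in their nuclei after axotomy. Sox11 is a transcription factor of developing and regenerating neurons, Gap43 is a membrane protein of growth cones, Gal and Npy encode the neuropeptides galanin and neuropeptide Y, and Sprr1a encodes a small proline-rich protein that promotes axon outgrowth. In the cochlea, the spiral ganglion neurons carry the signal of the hair cells to the brain, and loud noise damages their endings. Some members have other sources: Npy is a transmitter of sympathetic nerves, galanin occurs in pituitary and sensory neurons, and Sprr1a was first known as a component of the cornified envelope of squamous epithelia.

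The 75th percentile of the probe signal lay between 536.9 and 678.5 units on the 6 arrays, and between 63.0% and 70.3% of probes were well above background. A level is given as the signal divided by that percentile of the same array and is called the scaled signal. With 1 array a group there was no replicate, so no pair of arrays could be tested, and a difference is given with a 95% interval from the software's spot error that covers the error of the spot and not the variation between mice. A gene was called when it differed at least 2-fold and was well above background on both arrays. Both 12 h arrays lay on 1 slide and the other 4 on another, so slide and time cannot be told apart where a 12 h array is set against one of the other 4, while each comparison of dexamethasone with saline lay within a slide. Markers were read beside the tissue label: all 20 spiral ganglion markers and 15 to 17 of 18 hair cell markers were well above background, depending on the array. So were 16 or 17 of 18 cerebellar markers and 13 to 19 of 19 markers of epidermis and squamous epithelium. Such counts therefore cannot tell the cochlea from other tissue.

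What was measured for each gene is fixed by the probe, and since one gene carried 3 probes that did not behave alike, the probes are shown first. Each is a 60-base oligonucleotide; the first 30 bases are printed, and all 60 for Npy, whose probe spans 3763 bases of genome and so crosses an intron.
Atf3: cacagcagctttgtccttggctacaaactg
Gap43: gttccgttctgaggagtccaaaatattaag
Sox11, first probe: gcaggagtttttcacagaggaatacatttg
Sox11, second probe: aaccattctgtattgaaactcttgctataa
Sox11, last probe: tggtcttcacaatgcattcgtcgaaaccgc
Gal: tgttgatgtgcccctgcctgagagcaacat
Npy: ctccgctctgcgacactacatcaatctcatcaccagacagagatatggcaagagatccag
Sprr1a: gctcctgagcctcttaacattgcccaaagt
On mm9, the build in the file headers, the probes lie at chr1:192994547-192994606 (Atf3), chr16:42248714-42248773 (Gap43), chr12:28020087-28020146, chr12:28019541-28019600 and chr12:28023292-28023351 (Sox11, in the order above), chr19:3411143-3411202 (Gal), chr6:49773743-49777505 (Npy) and chr3:92287955-92288014 (Sprr1a). Npy is listed on the plus strand and the other genes on the minus strand, apart from the last Sox11 probe, which is listed on the plus strand, opposite to the gene, so that what it detects is not known and its values are given as those of a probe, not of Sox11 RNA. Which exon or untranslated region each probe lies in was not determined here. All 8 probes were well above background on 6 of 6 arrays.

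Atf3 was low at baseline and higher on every array from a noise-exposed group. Its scaled signal was 0.414 at baseline, 1.55 after noise only, 1.14 (saline) and 1.69 (dexamethasone) at 12 h, and 1.77 (saline) and 1.46 (dexamethasone) at 24 h. The baseline array thus stood below all 5 others, and the step from baseline to the next array, saline 12 h, was the only one between neighbours in the order of levels that exceeded the spot error. Against baseline, Atf3 was 3.75-fold higher after noise only (2.84 to 4.96), 2.76-fold higher at saline 12 h (2.09 to 3.65) and 4.28-fold higher at saline 24 h (3.24 to 5.65). These 3 comparisons share the baseline array. Of the genes measured in each, 99.5%, 98.3% and 99.7% had a lower difference than Atf3. With dexamethasone the gene was also above baseline, by 4.07-fold at 12 h and 3.53-fold at 24 h. The summed signal of 18 cerebellar markers, 16 or 17 of them above background, was lowest at baseline, at 124.2, against 265.8 after noise only. It was 286.8 (saline) and 252.5 (dexamethasone) at 12 h, and 153.7 (saline) and 126.5 (dexamethasone) at 24 h. Much of the sum was Pvalb, which read 82.9 at baseline and 92.7 at dexamethasone 24 h. Baseline was the lowest array for 6 of the 16 markers above background on all 6 arrays, and not for the other 10. Of 17 measured, 15, 13 and 5 were called higher after noise only, at saline 12 h and at saline 24 h. The sum of 18 hair cell markers was also lowest at baseline (by 0.16 to 0.70 on the log2 scale). After noise only and at 12 h much of that came from Calb1, which stands in both lists. It read 3.78 at baseline, 10.45 to 13.85 on those arrays, and 5.48 (saline) and 4.45 (dexamethasone) at 24 h. At saline 24 h 13 of 15 measured hair cell markers were above baseline. The median hair cell difference was 0.36, -0.09 and 0.53 after noise only, at saline 12 h and at saline 24 h. The part of these markers in the result was not tested. When arrays were scaled on spiked-in RNA instead, the difference at saline 12 h was 0.67 on the log2 scale, below 2-fold, while all genes together were shifted by -0.74.

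**Figure D1:**
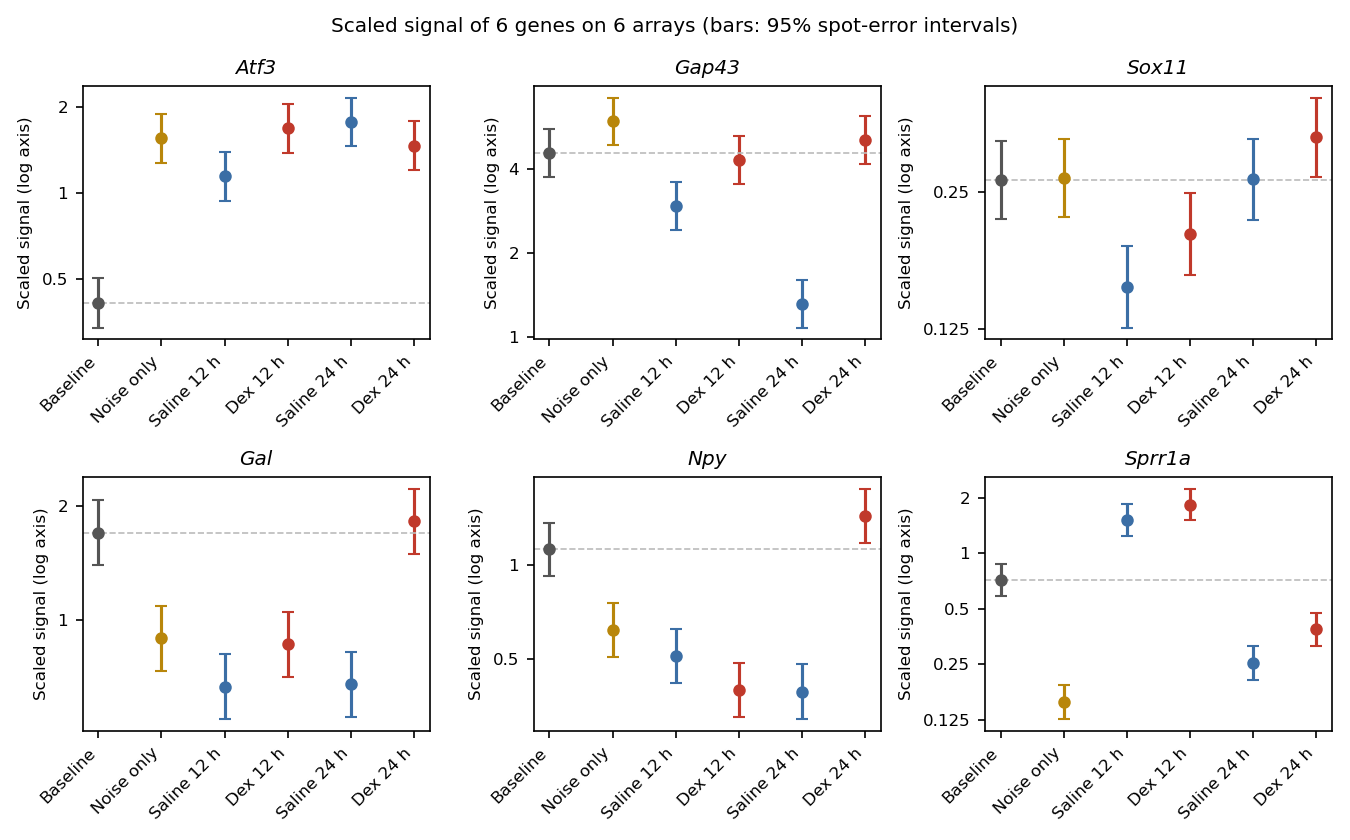
Scaled signal (log axis) of the 6 genes on the 6 arrays, with 1 point per array, bars for 95% spot-error intervals and a dashed line at the baseline level; Sox11 is its first probe. Atf3 is low on the baseline array alone (0.414), Gal and Npy are high on the baseline and dexamethasone 24 h arrays, Gap43 is lowest at saline 24 h (1.32), and Sprr1a is high on both 12 h arrays.

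A list of 20 other transcription factors and regulators of the injury response was measured in full. After noise only and at saline 24 h 0 were called, where 5.82% and 3.44% of all genes were, and at saline 12 h 1 was called, where 7.84% of all genes were: Socs3, a feedback inhibitor of cytokine signalling (2.35-fold higher). The medians of the 20 differences were 0.10, 0.27 and 0.17 on the log2 scale after noise only, at saline 12 h and at saline 24 h, where all genes had medians of -0.01, 0.06 and 0.01. Jun, a bZIP partner of Atf3 that was picked out after its values were seen, had a scaled signal of 5.49 at baseline and 7.02 to 9.66 on the other 5 arrays. Ddit3, which encodes the stress factor CHOP, was 0.52 higher on the log2 scale after noise only than at baseline, and its scaled signal was 1.43 to 1.92 on the 5 arrays after noise. The immediate early gene Egr1 had 2.31 at baseline and 2.74 to 3.94 elsewhere. For 10 of the 20 genes, these 3 among them, the baseline array was the lowest of the 6, and for the other 10 it was not. Of those other 10, Cebpd read 8.89 at baseline and 16.0 at saline 12 h, and Klf7 6.94 at baseline and 4.14 at saline 12 h. The share of all genes with baseline lowest was not computed, so this count is a description only.

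Atf3 protein binds ATF/CRE sites, and as a partner of Jun it also binds AP-1 sites, so the promoters of the members were searched for both. RefSeq promoters (GRCm38.p6, from 250 bases before to 50 after the gene start) were found for 5 of 6 members, all but Gap43. The AP-1 motif TGAGTCA (or TGACTCA on the other strand) occurred in 5.2% of all 32851 promoters and the ATF/CRE core TGACGT (or ACGTCA) in 7.51%; neither motif contains the other. Among the 5, Atf3 held 1 ATF/CRE core, 8 bases before its start, and Sprr1a held 2 AP-1 motifs, 146 and 116 bases before its start. The 250 bases before the start of these 2 genes are printed 5′ to 3′ on the minus strand, with the motifs in capitals, because they are the only members with a match.
Atf3, chr1:191183334-191183583: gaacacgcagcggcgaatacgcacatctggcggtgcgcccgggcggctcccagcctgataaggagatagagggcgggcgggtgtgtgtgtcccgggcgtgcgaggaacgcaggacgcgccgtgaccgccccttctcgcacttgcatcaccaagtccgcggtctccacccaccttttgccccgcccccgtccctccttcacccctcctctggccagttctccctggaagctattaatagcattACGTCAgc
Sprr1a, chr3:92485882-92486131: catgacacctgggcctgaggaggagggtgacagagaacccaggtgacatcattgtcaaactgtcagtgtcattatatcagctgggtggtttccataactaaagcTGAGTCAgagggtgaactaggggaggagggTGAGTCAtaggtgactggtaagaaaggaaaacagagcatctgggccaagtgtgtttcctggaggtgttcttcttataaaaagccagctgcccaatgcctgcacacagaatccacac
These are matches of letters, and no binding was measured. The levels of Atf3 and Sprr1a did not run together over the 6 arrays (Pearson r = -0.23, a description over arrays that include both slides).

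Gap43 did not follow Atf3. Its scaled signal was 4.56 at baseline, 5.93 after noise only, 2.95 (saline) and 4.30 (dexamethasone) at 12 h, and 1.32 (saline) and 5.08 (dexamethasone) at 24 h. Both saline arrays were the lowest. The steps from saline 24 h to saline 12 h and from saline 12 h to dexamethasone 12 h exceeded the spot error, and no other step between neighbours did. Gap43 was 3.46-fold lower at saline 24 h than at baseline (2.62 to 4.57) and 1.55-fold lower at saline 12 h (1.17 to 2.04), whereas the difference after noise only, 1.30-fold higher, was within the spot error (0.99 to 1.72). Under dexamethasone the gene stood at the baseline level: the differences from baseline were -0.08 at 12 h and 0.16 at 24 h on the log2 scale, both within the spot error. At 24 h the dexamethasone array was therefore 3.85-fold above the saline array (2.92 to 5.09), a difference larger than that of 99.7% of measured genes. At 12 h it was 1.46-fold above it (1.11 to 1.93).

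Sox11 was lowest on both 12 h arrays, and its 3 probes differed in the size of that step. The first probe, which stands for the gene here, read 0.266 at baseline, 0.268 after noise only, 0.155 (saline) and 0.202 (dexamethasone) at 12 h, and 0.267 (saline) and 0.330 (dexamethasone) at 24 h. On this scale no step between neighbours in the order exceeded the spot error, and after noise only and at saline 24 h the gene was at its baseline level, with log2 differences of 0.01 in both cases (-0.39 to 0.42 and -0.41 to 0.42). At saline 12 h it was 1.71-fold lower than baseline by the first probe (1.29 to 2.29) and 1.71-fold by the second (1.24 to 2.35). The signal of the last probe, in the opposite direction, was 3.21-fold lower (2.30 to 4.49). All 3 probes were thus lower on both 12 h arrays than on any other array, and the last was the only one past 2-fold. The dexamethasone 24 h array was the highest for each probe, and its difference from saline 24 h exceeded the spot error for the last probe only, at 1.55-fold (1.15 to 2.08). The 12 h arrays were both on the other slide.

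**Figure D2:**
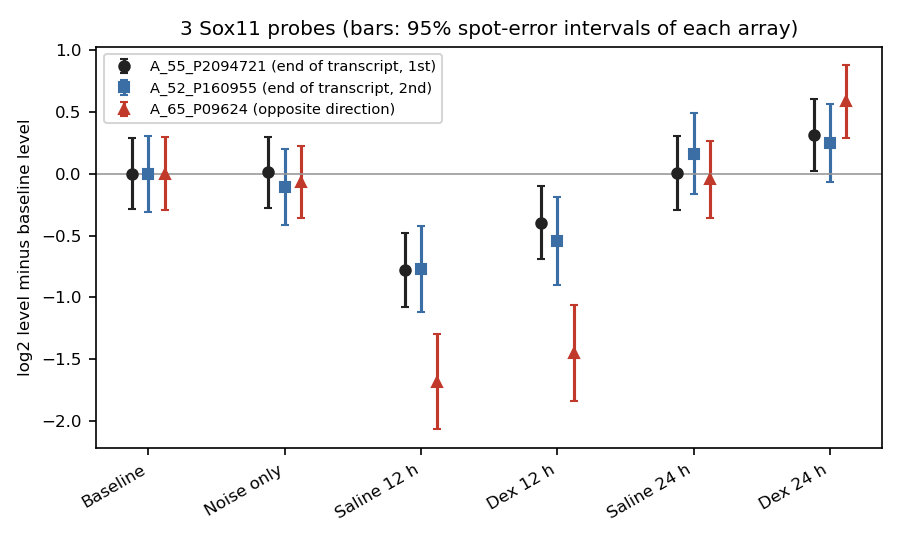
Log2 level of 3 Sox11 probes minus the baseline level of the same probe on each of 6 arrays, with bars for the 95% spot-error interval of each array. All 3 probes are lowest on both 12 h arrays, and at saline 12 h the probe in the opposite direction differs by -1.68 against -0.78 and -0.77 for the others.

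Proteins of the growth cone and the axon skeleton, the company in which Gap43 works, were read from a list of 26 genes, all measured in each comparison. After noise only 1 was called, Rtn4r, a receptor for inhibitors of axon growth (2.83-fold higher), where 2.64% of all genes were called higher. At saline 12 h 2 were higher and 5 lower, where 4.41% of all genes were called higher and 3.42% lower. Prph, the intermediate filament peripherin of peripheral neurons, was 4.02-fold lower, Tubb2b, a neuronal beta-tubulin, 2.54-fold lower, Nefm, a neurofilament, 2.49-fold lower, and Flnc, an actin-binding filamin, 3.69-fold higher. At saline 24 h 0 were higher and 2 lower, Prph by 4.27-fold and Tubb2b by 3.07-fold, where 1.72% of all genes were called lower. With dexamethasone at 12 h 1 was higher than with saline, Prph (3.05-fold), and 0 lower, with a list median of 0.07 on the log2 scale; 1.67% of all genes were called higher there. With dexamethasone at 24 h, 3 were higher than with saline and 0 lower: Prph (5.68-fold), Tubb2b (3.03-fold) and Tubb3, the neuronal class of beta-tubulin (2.15-fold). Of all genes, 1.63% were called higher. The median of the 26 differences in that comparison was 0.41 on the log2 scale, where all genes had a median of -0.0049.

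Marker lists of neurons were read beside Gap43. The summed scaled signal of 20 spiral ganglion markers was 304.0 at baseline, 266.1 after noise only, 172.3 (saline) and 212.3 (dexamethasone) at 12 h, and 265.5 (saline) and 358.7 (dexamethasone) at 24 h. That of 16 markers of other sensory ganglia, of which 14 to 16 were above background, was 45.1, 36.3, 13.2, 32.9, 18.6 and 60.7 in the same order, lowest on both saline arrays, as Gap43 was. The spiral ganglion sum did not order the arrays as Gap43 did: it was lowest on both 12 h arrays and near equal after noise only and at saline 24 h. Much of that sum was the neurofilaments Nefl, Nefm and Nefh, which read 67.4, 56.5 and 73.0 at baseline and 63.1, 42.7 and 77.8 at saline 24 h. The sum without them was not computed, so its order need not hold for the other markers. The median spiral ganglion difference from baseline was -0.02, -0.65 and -0.17 on the log2 scale after noise only, at saline 12 h and at saline 24 h. The cerebellar sum, given above, was lowest at baseline, though much of it was Pvalb and most single markers were not lowest there. The lists overlap with the axon list (Prph, Tubb3 and neurofilaments stand in more than 1), the part of each in the Gap43 result was not tested, and in whole tissue fewer cells of a type and less RNA per cell cannot be told apart.

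Gal and Npy had one pattern between them: high at baseline and at dexamethasone 24 h, low on the other 4 arrays. The scaled signal of Gal was 1.70 at baseline, 0.896 after noise only, 0.669 (saline) and 0.865 (dexamethasone) at 12 h, and 0.679 (saline) and 1.82 (dexamethasone) at 24 h. Npy read 1.12, 0.620, 0.512, 0.401, 0.395 and 1.43 in the same order. For both genes the gap between noise only and baseline was the only step between neighbours that exceeded the spot error, and their log2 levels had a Pearson r of 0.94 over the 6 arrays, the highest among the 15 pairs of members.

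Against baseline, Gal was 1.90-fold lower after noise only (1.44 to 2.51), 2.55-fold lower at saline 12 h (1.93 to 3.36) and 2.51-fold lower at saline 24 h (1.90 to 3.32). Npy was 1.81-fold lower (1.37 to 2.38), 2.19-fold lower (1.66 to 2.89) and 2.83-fold lower (2.14 to 3.75). Neither peptide gene was thus above baseline on a noise array without dexamethasone. At 24 h the dexamethasone array exceeded the saline array 2.69-fold for Gal (2.03 to 3.55) and 3.62-fold for Npy (2.74 to 4.80). At 12 h the differences, 0.37 for Gal and -0.35 for Npy on the log2 scale, were within the spot error.

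Several other neuropeptide genes of injured neurons were lower on the saline arrays than at baseline, and several were not. Of 14 on the array, 13 were measured after noise only, 12 in both comparisons at 12 h and 10 in both at 24 h. Against baseline, 0 were called higher on the noise-only, saline 12 h and saline 24 h arrays, and 2, 6 and 5 were called lower, where 3.18%, 3.42% and 1.72% of all genes were called lower. At saline 12 h Vip, the vasoactive intestinal peptide, was 7.62-fold lower, Sst, somatostatin, 7.21-fold, Adcyap1, which encodes PACAP, 6.04-fold and Calca, the precursor of CGRP, 3.63-fold. With dexamethasone 3 were higher than with saline at 12 h and 4 at 24 h, with 0 lower at either time: Calca was 2.91-fold and 3.08-fold higher, Calcb 2.42-fold and 2.50-fold, and Adcyap1 2.31-fold and 4.45-fold. Sst, 2.61-fold higher, was the fourth at 24 h. Of all genes, 1.67% and 1.63% were called higher in these comparisons. Cck, the cholecystokinin gene, ran the other way, with a scaled signal of 0.6995 at baseline, 0.695 at dexamethasone 24 h and 1.26 to 1.36 after noise only and on both 12 h arrays. Vip stayed below baseline at dexamethasone 24 h (0.126, against 0.537). At saline 24 h Vip read 0.0216, not well above background, so it was not among the genes measured for dexamethasone against saline at 24 h. The list's medians for dexamethasone against saline were 0.62 at 12 h and 0.90 at 24 h on the log2 scale, where all genes had medians of -0.02 and -0.0049. Calca and Tac1 also stand in the sensory ganglion list.

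Of the receptors for galanin and neuropeptide Y, Galr1, Npy5r and Npy6r were above background on 0 arrays. Galr2, Galr3, Npy1r and Npy4r were measured on 6, and Npy2r on 4. Among them Npy4r was 2.89-fold higher at saline 12 h than at baseline, and Npy2r, not well above background on either saline array, was at least 2.41-fold lower there at 12 h; such a bound sets the brighter array against the lowest signal that counts as above background on the dimmer one. At 24 h Npy2r was at least 2.19-fold higher with dexamethasone than with saline.

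Markers of sympathetic neurons were, like Gal and Npy, high on the baseline and dexamethasone 24 h arrays. Without Npy itself, which stood in the list, 14 of them had a summed scaled signal of 37.2 at baseline, 9.32 after noise only, 3.87 (saline) and 6.39 (dexamethasone) at 12 h, and 4.94 (saline) and 42.9 (dexamethasone) at 24 h. Between 9 and 15 of the 15 listed genes were above background on an array. Dbh, which makes noradrenaline from dopamine and defines these cells, read 12.0 at baseline and 13.4 at dexamethasone 24 h, between 0.0340 and 0.177 after noise only and on both 12 h arrays, and was not well above background at saline 24 h. The sums for sensory ganglia, given above, were also highest at dexamethasone 24 h and baseline, but were low on the saline arrays only. For 12 pituitary markers, 5 to 8 of them above background, the sum was 18.9 at baseline, 3.61 after noise only, 48.0 (saline) and 24.1 (dexamethasone) at 12 h, and 1.82 (saline) and 105.8 (dexamethasone) at 24 h. The part of these cells in the Gal and Npy results was not tested.

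**Figure D3:**
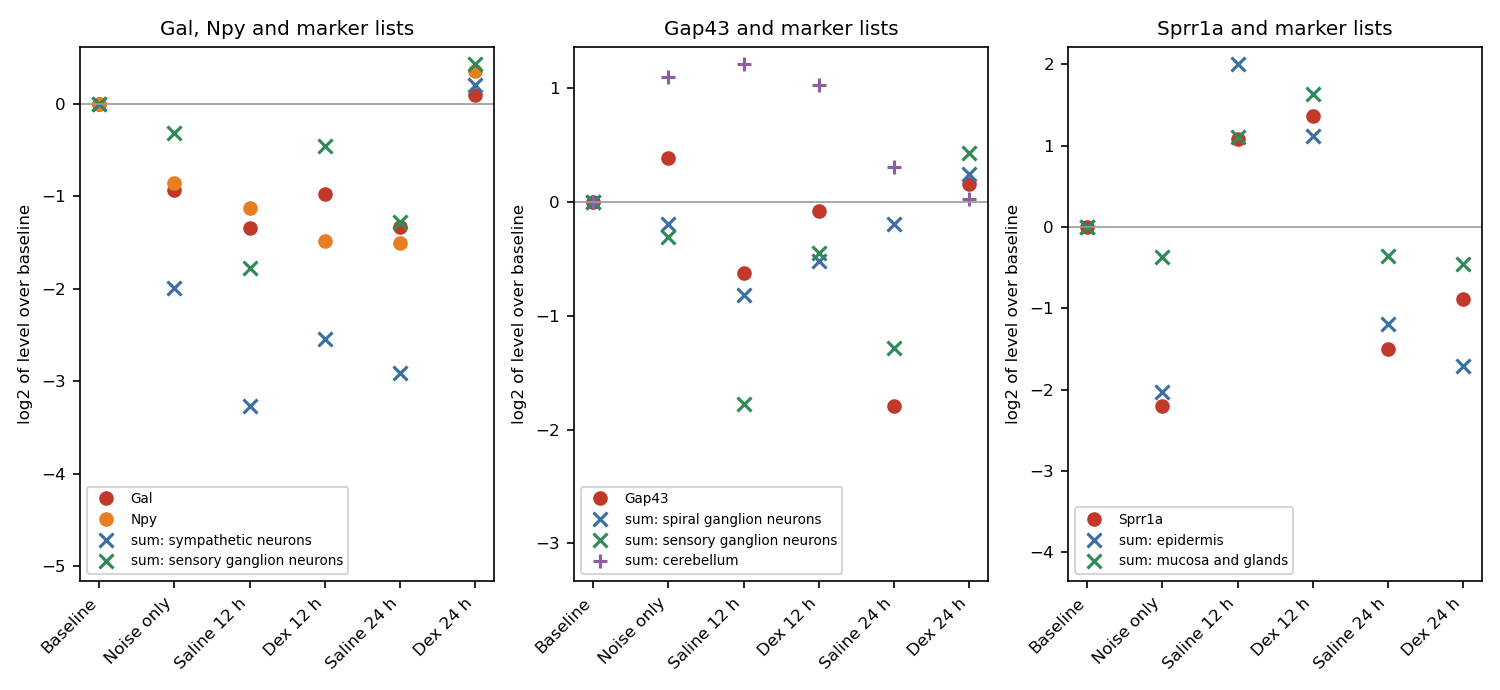
Log2 level over baseline on each of 6 arrays for Gal and Npy, Gap43, and Sprr1a (filled circles, 1 gene each) and for summed marker lists of cell types (crosses), with members taken out of the lists. The sympathetic sum is 1.99 to 3.26 below baseline on the 4 arrays where Gal and Npy are low and 0.21 above it at dexamethasone 24 h, and the epidermal sum is 2.00 above baseline at saline 12 h and 2.03 below it after noise only.

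Sprr1a varied most among the members. Its scaled signal was 0.712 at baseline, 0.155 after noise only, 1.51 (saline) and 1.83 (dexamethasone) at 12 h, and 0.253 (saline) and 0.385 (dexamethasone) at 24 h. Every step between neighbours exceeded the spot error apart from that between both 12 h arrays, and the highest array was 11.8-fold above the lowest. Against baseline it was 4.58-fold lower after noise only (3.44 to 6.12), 2.12-fold higher at saline 12 h (1.60 to 2.79) and 2.82-fold lower at saline 24 h (2.11 to 3.77). Dexamethasone differed from saline by 1.21-fold at 12 h, within the spot error (0.92 to 1.60), and by 1.53-fold at 24 h (1.14 to 2.05), higher both times. With spike-in scaling the saline 12 h difference from baseline was 0.28 on the log2 scale, below 2-fold.

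Of 15 listed small proline-rich genes besides Sprr1a, a family that cornifying epithelia express, 14 were on the array and 5 to 9 of them above background. Sprr1b was above background on both 12 h arrays and on 0 others, and was at least 5.98-fold higher at saline 12 h than at baseline. Sprr2d was at least 2.96-fold higher there, and Sprr4 at least 3.52-fold lower after noise only. Sprr2a2 read 108.5 at baseline and 94.1 to 140.7 elsewhere. Members of this family are similar in sequence, and whether probes cross-react was not tested.

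Markers of epidermis and squamous epithelium were, like Sprr1a, highest on both 12 h arrays. Their summed scaled signal, over 19 genes of which 13 to 19 were above background, was 40.4 at baseline and 9.90 after noise only. It was 161.8 (saline) and 87.7 (dexamethasone) at 12 h, and 17.7 (saline) and 12.4 (dexamethasone) at 24 h. The sum was thus lower with dexamethasone than with saline at both times. Sprr1a was 1.21-fold higher with dexamethasone at 12 h, within the spot error, and 1.53-fold higher at 24 h, beyond it. Of the single markers, 3 of 19 measured at 12 h and 4 of 11 at 24 h were also above saline. With dexamethasone at 12 h 10 of 19 were called lower than with saline and 0 higher, where 1.88% of all genes were called lower. At 24 h 2 of 11 measured were lower and 0 higher, where 1.53% were called lower. Krt6b, a keratin of stressed epidermis, read 0.0412 at baseline, 8.62 at saline 12 h and 0.360 at dexamethasone 12 h. Lor, which encodes loricrin of the cornified envelope, read 7.32 at baseline, 20.4 at saline 12 h and 0.453 at dexamethasone 24 h. For 14 markers of mucosa and glands the sum was 452.2 at baseline, 969.7 (saline) and 1405 (dexamethasone) at 12 h, and 331.0 to 351.7 on the other 3 arrays. The part of these epithelia in the Sprr1a result was not tested.

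Set side by side, the members differed in direction. After noise only 1 of 6 was called higher (Atf3) and 1 lower (Sprr1a), where 5.82% of 24161 measured genes were called, 2.64% higher and 3.18% lower. At saline 12 h 2 were called higher (Atf3, Sprr1a) and 2 lower (Gal, Npy), where 7.84% of genes were called, 4.41% higher and 3.42% lower. At saline 24 h 1 was higher (Atf3) and 4 were lower (Gap43, Gal, Npy, Sprr1a), where 3.44% were called, 1.72% higher and 1.72% lower. With spike-in scaling the members' count at saline 12 h was 0 higher and 4 lower, and the share of all genes called lower there was 29.6%. The median difference of the 6 genes was -0.42, -0.70 and -1.41 on the log2 scale after noise only, at saline 12 h and at saline 24 h.

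**Figure D4:**
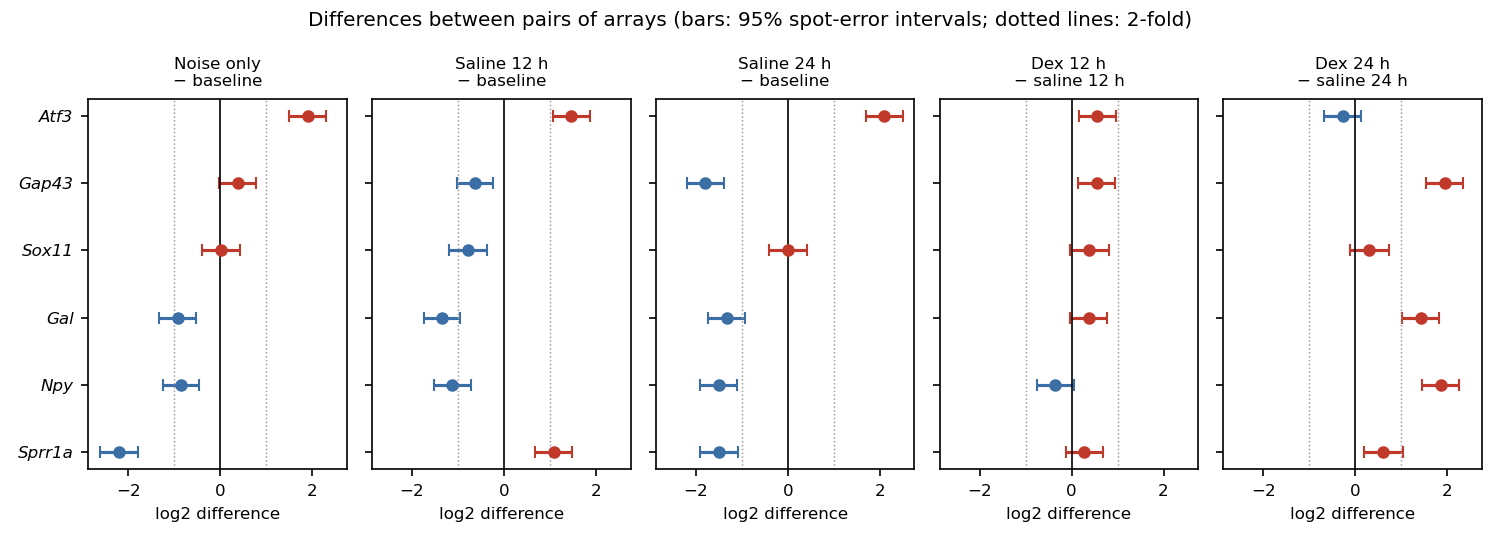
Log2 differences of the 6 genes in 5 comparisons of single arrays, with bars for 95% spot-error intervals, dotted lines at 2-fold, red for higher and blue for lower. Atf3 lies above 2-fold in all 3 comparisons with baseline, and Gap43, Gal and Npy lie above it for dexamethasone against saline at 24 h.

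Dexamethasone against saline gave 0 of 6 called at 12 h, where 3.54% of genes were called (1.67% higher, 1.88% lower), and 3 of 6 called higher at 24 h (Gap43, Gal, Npy) with 0 lower, where 3.16% were called, 1.63% higher and 1.53% lower. These 3 and Sprr1a were the members called lower at saline 24 h, and that same saline array enters both comparisons. At dexamethasone 24 h the 3 did not differ from baseline beyond the spot error: the log2 differences from baseline were 0.16 for Gap43, 0.10 for Gal and 0.35 for Npy. Only Atf3 was called against baseline at dexamethasone 24 h, where 3.33% of genes were called, 1.31% higher and 2.02% lower. At dexamethasone 12 h 3 of 6 were called against baseline, Atf3 and Sprr1a higher and Npy lower, where 7.2% of genes were called, 4.55% higher and 2.64% lower.

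Over both times, dexamethasone was tested with limma on 4 arrays, 2 an arm, with time as a term and Benjamini-Hochberg adjustment over 24767 genes. The 2 arrays of an arm were from different times and were not replicates. The SE and p therefore rest on how the difference varied between times, together with the spread over all genes, and do not measure variation between mice. At an adjusted p under 0.05, 0 genes were called (0.0%), and at an unadjusted p under 0.05 3635 genes (14.7%). The estimate was 1.25 ± 0.34 (SE) for Gap43, 0.90 ± 0.27 for Gal, 0.75 ± 0.53 for Npy, 0.44 ± 0.15 for Sprr1a, 0.34 ± 0.17 for Sox11 and 0.14 ± 0.23 for Atf3 on the log2 scale. By limma, adjusted p was 0.247 for Gap43, 0.272 for Gal, 0.300 for Sprr1a, 0.427 for Sox11, 0.577 for Npy and 0.826 for Atf3, and 3 of the 6 had an unadjusted p under 0.05 (Gap43, Gal and Sprr1a). Gap43, Gal, Sox11 and Sprr1a were higher with dexamethasone at 2 of 2 times, and Atf3 and Npy at 1 of 2. With 1 array left out and no time term, the estimate changed sign for Sprr1a (-0.84 to 1.73), Npy (-0.17 to 1.67), Sox11 (-0.05 to 0.74) and Atf3 (-0.17 to 0.46). It stayed above 0 for Gap43 and Gal. Such a fit sets 1 time in the reduced arm against 2 in the other, so its estimate also holds the difference between times and slides. It therefore cannot show whether the dexamethasone difference is stable. Under spike-in scaling the adjusted p was 0.000517 for Gap43 and 0.0276 for Gal, and without the filter on dim probes it was 0.0209 for Gap43. Over all other alternatives, limma's adjusted p ranged from 0.212 to 1.0 for Gap43 and from 0.0555 to 1.0 for Gal.

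A list of 36 receptors, cytokines and adhesion molecules of the injury response had 31 to 33 genes measured in a comparison. After noise only 1 was higher, Fgf21, a stress-induced hormone (2.28-fold), and 0 lower, where 5.82% of all genes were called. At saline 24 h Fgf21 was higher (2.46-fold) and Ngfr lower (2.23-fold), where 3.44% were called. At saline 12 h 1 was higher and 2 lower, where 7.84% were called. Tnfrsf12a, the receptor of TWEAK, was 2.96-fold higher there, Ngfr, the p75 neurotrophin receptor, 3.65-fold lower and L1cam, an axonal adhesion molecule, 3.67-fold lower. With dexamethasone at 24 h 4 were higher and 0 lower: Ngfr (3.16-fold), Tnfrsf12a (2.82-fold), L1cam (2.61-fold) and Chl1, a relative of L1cam (2.14-fold), where 3.16% of all genes were called. At 12 h 2 were higher, L1cam (2.29-fold) and Ngfr (2.17-fold), and 1 lower, Timp1, an inhibitor of matrix proteases (2.06-fold), where 3.54% were called.

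**Figure D5:**
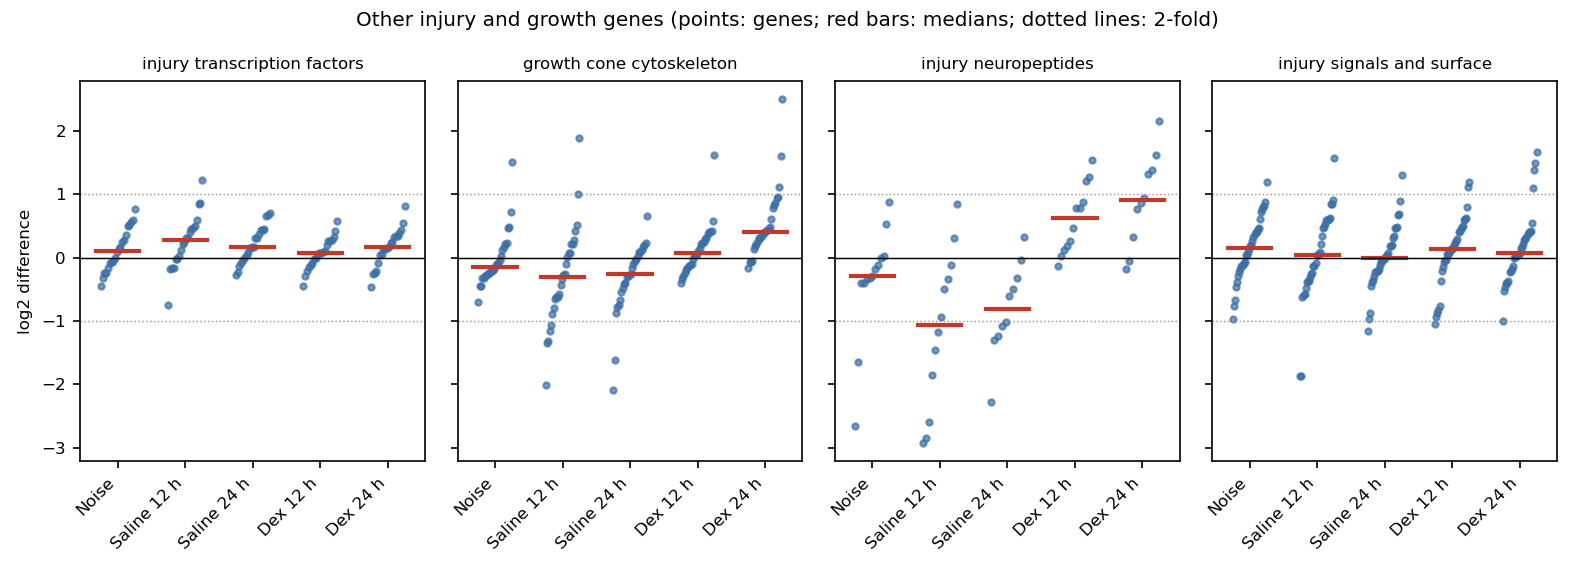
Log2 differences of the measured genes (points) of 4 lists in 5 comparisons, where Noise, Saline 12 h and Saline 24 h are against baseline and Dex is against saline at the same time, with red bars at the medians and dotted lines at 2-fold. The transcription factors centre near 0, and the neuropeptides centre at -1.06 at saline 12 h and 0.90 for dexamethasone at 24 h.

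The members spread more over the arrays than most genes. The range over the 6 arrays was 2.10 for Atf3, 2.17 for Gap43, 1.09 for Sox11, 1.45 for Gal, 1.86 for Npy and 3.56 for Sprr1a on the log2 scale. The median range of the 22460 genes above background on all 6 arrays was 0.63, and 23.3% of them had a range of at least 1. Among 3489 such genes with a range of at least 1, those whose log2 level ran closest to Atf3 were Chac1 (Pearson r = 0.97), Plekhs1 (0.96) and Syne4 (0.95). For Gap43 they were Fstl5 (0.99), Slc29a4 (0.98) and Atoh7 (0.98), and for Sox11 Ankrd6, F2r and Apba1 (1.00 each). For Gal they were Slc10a4, Ddc and Gfra2 (0.99 each), for Npy Arc (1.00), Rxrg (0.98) and Gfap (0.97), and for Sprr1a Duoxa1, Prss16 and S100a14 (0.99 each). Each r rests on the same 6 arrays from 2 slides, and with so few points high values are common: 220 genes exceeded 0.95 with Sox11 and 4 with Atf3. Ddc, the nearest but one to Gal, is itself in the sympathetic list.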

How the data were processed

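Cochlear RNA of 6 groups was measured on 1 one-colour Agilent array each. The deposited scanner files hold intensity values, extracted by the authors with Agilent Feature Extraction 10.10.1.1, per the file headers and the submitters' processing notes; the software subtracts background and replaces the lowest signals. The deposited series matrix holds log2 values; its making is not stated. Within 0.01, at least 99.97% of 56605 probes in each column differed from log2 of the processed signal by one constant, with medians of -2.964 (baseline), -2.989 (noise only), -2.86 and -2.82 (saline and dexamethasone 12 h) and -2.937 and -2.908 (saline and dexamethasone 24 h), so scale and direction follow from the values and only the choice of constant is unknown.

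Levels here are log2 of the processed signal after subtracting the array's 75th percentile, taken over probes that are not controls. Of 56605 probes, 32994 were named through RefSeq accessions (a reference of GRCm38.p6, names only), with 1535 changes of name, and 16 probes were left out. A gene was represented by its probe with the highest mean (11804 genes had several). No spot was saturated. Named were the 6 members with all probes, from each list up to 4 genes by size of difference in a comparison, and 3 genes of closest correlation per member. Dexamethasone was tested with limma 3.58.1 (lmFit, eBayes with trend) in R 4.3.3, over genes that were well above background on 2 or more of the 4 arrays, after a run on simulated data. Other steps used Python 3.11.15, pandas 2.3.3, numpy 2.4.6 and matplotlib 3.10.9, and the R package data.table was version 1.17.8. Alternatives were quantile normalization, normexp with an offset of 50, the percentile over detected probes, 7 spike-in probes, the series matrix, the mean over a gene's probes, looser and stricter filters on dim probes, calls at 1.5-fold or 3-fold, changes to the limma fit, and leaving out each array. The members and gene lists were chosen with earlier results of these data known. The number of arrays limits the precision.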

Additional observations from a re-analysis of the deposited data

Results flagged for a closer look

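Atf3 and Npy stood on opposite sides of saline at the 2 times. With dexamethasone, Atf3 differed from saline by 0.56 on the log2 scale at 12 h, beyond the spot error, and by -0.28 at 24 h, within it. Npy differed by -0.35 at 12 h, within the spot error, and by 1.86 at 24 h, beyond it. Whether the difference changes with time was not tested, because each value rests on 1 array an arm, and both 12 h arrays lie on another slide than the 24 h arrays.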

How the results depend on the processing

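For the 6 genes in 5 comparisons, 180 values were recomputed under other scalings, background correction, the series matrix and the mean over probes: 173 stayed within the spot error of the reported value, 7 moved beyond it, and no value of at least 2-fold changed sign. In 4 cases Sox11, within the spot error of 0 after noise only and at saline 24 h, took the other sign. Of the 7, 6 were saline 12 h against baseline under spike-in scaling, which lowers that array by 0.80: Atf3 0.665, Gap43 -1.429, Sox11 -1.579, Gal -2.149, Npy -1.93 and Sprr1a 0.28. The other was Sprr1a after noise only under normexp, -1.585. Genes called numbered 1406, 1903 and 790 against baseline (noise only, saline 12 h, saline 24 h) and 857 and 718 for dexamethasone at 12 h and 24 h. In that order they numbered 685, 987, 411, 393 and 356 under normexp, 3457, 5470, 2896, 3612 and 2813 with no filter on dim probes, 442, 645, 207, 193 and 197 among genes brighter than the median, 3649, 6177, 2350, 3093 and 2521 at 1.5-fold, and 399, 551, 265, 251 and 206 at 3-fold. Spike-in scaling gave 7422 at saline 12 h. With limma, 0 genes passed the adjusted threshold (3635 at an unadjusted p under 0.05), against 590 under spike-in scaling, 951 with no filter on dim probes and 0 to 21 with 1 array left out and no time term (21 without dexamethasone 12 h). With 1 array left out and no time term, the estimate ranged from -0.174 to 0.456 for Atf3, -0.047 to 0.737 for Sox11 (also -0.009), -0.167 to 1.671 for Npy and -0.844 to 1.732 for Sprr1a (also -0.679), changing sign in each, and from 0.665 to 1.827 for Gap43 and 0.36 to 1.436 for Gal. These fits set 1 time in the reduced arm against 2 in the other, so their estimates also hold the difference between times and slides. They cannot show whether the dexamethasone difference is stable. The causes of the changes under the other settings were not tested. No paired analysis was possible because each group had 1 array with no replicate number, beyond limma's time term, which sets dexamethasone against saline within each time. Signal over background did not limit the 8 probes, all well above background on 6 arrays.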
